A study of Mus musculus with 21 samples.

Results

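The libraries compared here were 7 untreated dorsal root ganglion (DRG) RNA-seq libraries, of 21 in the series, whose codes carry C or L as the second letter after con_ or ko_. The C-coded libraries numbered 4 (con_FC_3, ko_FC_1, ko_FC_2 and ko_MC_2) and the L-coded libraries numbered 3 (con_FL_1, con_ML_2 and ko_ML_2). Libraries were grouped by that letter alone and not by any measured value, but the comparison itself was chosen with earlier results of these data known. The labels do not say what C, L, F or M stand for, and give neither the age nor the sex of the mice. Their titles name Tmem45b-flox mice for the con libraries and Tmem45b-flox::Mrgprd-cre mice for the ko libraries, so all 7 came from mice with the floxed Tmem45b allele, and in the ko mice Cre was driven from Mrgprd, a receptor gene of nonpeptidergic nociceptors. The genotype field names the Cre genotype for con libraries as well, and titles and codes were followed here. No treatment is named for these samples. The other 14 libraries, in a second table, were 6 untreated ones coded LDRG (3 flox and 3 Cre) and 8 from the CFA model (4 flox and 4 Cre). C was unevenly spread over genotype and first letter: the C libraries held 1 flox and 3 Cre samples, with 3 coded F and 1 coded M, whereas the L libraries held 2 flox and 1 Cre sample, with 1 coded F and 2 coded M. Genotype was therefore a covariate of the comparison.

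Dorsal root ganglia hold the cell bodies of sensory neurons together with satellite glia and Schwann cells, and there is one pair at every segment of the spine. Hox genes encode transcription factors that lie in 4 clusters (a to d) and are numbered by paralogue group. Low-numbered groups are expressed from the hindbrain and neck downwards, and high-numbered groups begin progressively further towards the tail, so that the set of Hox genes on is a readout of position along the body axis that adult ganglia retain.

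Tmem45b, the floxed gene, was read in every sample first. Its level in CPM (a gene's counts relative to its library's total, scaled for composition) was 157, 188 and 163 in con_FC_3, con_FL_1 and con_ML_2, and 80.0, 92.1, 72.4 and 89.5 in ko_FC_1, ko_FC_2, ko_MC_2 and ko_ML_2. The con and ko libraries did not overlap, whichever letter they carried. Between C and L, with genotype in the model, Tmem45b differed by -0.15 ± 0.10 on the log2 scale (± is the standard error of a log2 difference throughout; edgeR quasi-likelihood test, Benjamini-Hochberg adjusted p = 0.487). Mrgprd was 97.0, 103, 70.8 and 114 CPM in the C libraries (in the order con_FC_3, ko_FC_1, ko_FC_2, ko_MC_2, used throughout) and 134, 145 and 134 CPM in the L libraries (con_FL_1, con_ML_2, ko_ML_2), a log2 difference of -0.50 ± 0.17 that did not pass the test (edgeR adjusted p = 0.175).

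The labelled tissue matched its markers. All 13 pan-sensory neuron genes were tested and none was called by edgeR or DESeq2 (1 had an unadjusted p under 0.05, as had 19.2% of all tested genes), with a summed level of 17866 to 21319 CPM in C and 16884 to 21194 CPM in L. Total counts ran from 53364389 to 65643488 per library in C and from 64562564 to 65157714 in L. Xist was at 301 CPM or more in the 4 libraries coded F and at 0.217 CPM or less in the 3 coded M, while the Y-linked gene Ddx3y ran the other way. No 2 libraries of a group were near-copies, since the 9 within-letter pairs differed by 27.9 to 107 times the counting noise (chi-square over degrees of freedom). The labels do not say whether libraries came from separate animals or pools, so the p-values rest on the scatter among these libraries, part of which may be technical. In bulk tissue, fewer cells of a type and less RNA per cell cannot be told apart.

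Across 16781 tested genes, 214 (1.28%) were called at an adjusted p under 0.05, of which 18 (0.107%) were higher in C and 196 (1.17%) were lower. The median difference over all tested genes was 0.00 on the log2 scale. The first principal component held 45.3% of the variance of the 1000 genes used and separated the letters, from -27.4 to -9.40 in C and from 11.2 to 35.5 in L. With the first letter (F or M) as a further covariate 14 genes (0.0834%) were called, 12 of them among the 214: Ensa, Cbx2, Kctd20, Mobp, Hoxa9, Hoxa10, Hoxc9, Thbs1, Vcam1, Cxcl9, H2-Q10 and Myh4. Without ko_ML_2, the single L-coded Cre library, the number called was 12, and over the other 6 libraries left out in turn it ran from 16 to 536. All 214 genes had the same direction within the Cre libraries alone, within the flox libraries alone and with the first letter in the model. These fits reuse the libraries from which the 214 were picked, so the shared direction is not an independent check.

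**Figure D1:**
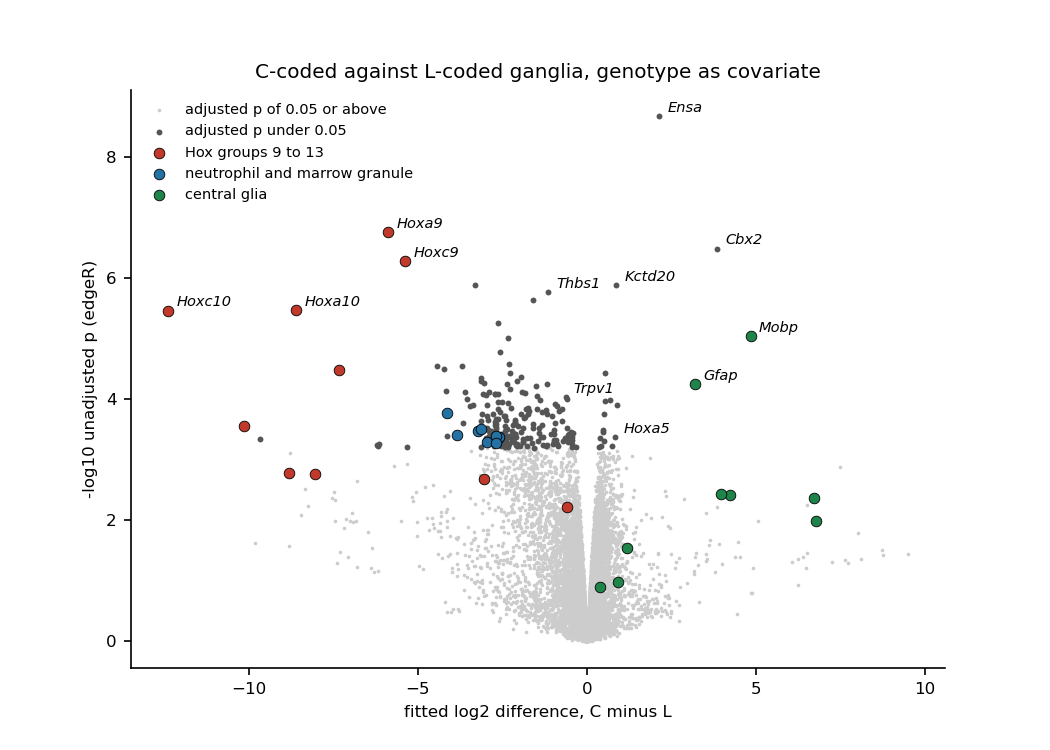
Each point is 1 of 16781 tested genes, placed by its fitted log2 difference (C minus L, horizontal) and its unadjusted edgeR p on a -log10 scale (vertical). Dark points are the 214 genes with adjusted p under 0.05; coloured points are list members. Hox groups 9 to 13 lie far left, neutrophil genes left and central glia genes right; for genes with 0 counts in every library of a letter, the horizontal place depends on the prior count and has no scale.

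A set of 4 Hox genes is shown with the 250 bases before the first listed transcription start of each. Hoxa9, Hoxa10 and Hoxd10 were called lower in C, and Hoxa5 was called higher. The set was taken because members of groups 9 and 10 moved together while Hoxa5 of the a cluster moved the opposite way. Sequences are from RefSeq (GRCm38.p6, the mm10 assembly the counts were made on), 5′ to 3′ on the gene's strand, with CG dinucleotides in capitals. Hoxa9 is at chr6:52227371-52227620 (minus strand), Hoxa10 at chr6:52240855-52241104 (minus), Hoxd10 at chr2:74691641-74691890 (plus) and Hoxa5 at chr6:52204588-52204837 (minus). The Hoxa9 window lies inside the span of the gene given below, not before its 5′ end, and other starts were not examined. Of the 39 Hox genes, 22 had an entry in the promoter table, and Hoxc6, Hoxc9 and Hoxc10 had none.
Hoxa9: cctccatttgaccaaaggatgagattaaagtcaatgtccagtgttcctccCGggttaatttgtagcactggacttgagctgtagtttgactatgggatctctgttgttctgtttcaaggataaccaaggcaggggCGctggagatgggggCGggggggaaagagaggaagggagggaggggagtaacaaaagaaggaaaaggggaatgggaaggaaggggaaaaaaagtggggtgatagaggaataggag
Hoxa10: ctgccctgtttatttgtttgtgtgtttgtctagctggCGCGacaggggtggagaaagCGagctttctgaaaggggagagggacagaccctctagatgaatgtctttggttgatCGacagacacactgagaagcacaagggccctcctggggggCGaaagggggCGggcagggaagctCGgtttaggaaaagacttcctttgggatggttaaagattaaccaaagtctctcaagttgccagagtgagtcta
Hoxd10: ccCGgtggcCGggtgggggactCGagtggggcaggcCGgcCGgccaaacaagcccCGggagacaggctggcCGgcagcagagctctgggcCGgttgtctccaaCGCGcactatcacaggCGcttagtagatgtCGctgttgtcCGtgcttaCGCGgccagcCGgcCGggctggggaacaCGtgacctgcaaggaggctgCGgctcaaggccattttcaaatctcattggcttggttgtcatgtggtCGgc
Hoxa5: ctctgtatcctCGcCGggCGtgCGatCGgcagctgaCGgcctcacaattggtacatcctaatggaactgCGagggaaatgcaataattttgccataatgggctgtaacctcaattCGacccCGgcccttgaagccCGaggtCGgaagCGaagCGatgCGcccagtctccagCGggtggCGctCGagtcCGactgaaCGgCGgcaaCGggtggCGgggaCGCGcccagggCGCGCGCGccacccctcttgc
These windows differed in CG content: Hoxa9 held 3 CG, Hoxa10 held 7, Hoxd10 held 20 and Hoxa5 held 28, against a median of 6 over 27025 promoters of that length. At least as many CG were found in 70.4% of promoters for Hoxa9, 46.5% for Hoxa10, 17.7% for Hoxd10 and 7.3% for Hoxa5. Hoxd11, the other gene called lower in C that had an entry, held 2 CG.

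Of the 16 Hox genes of paralogue groups 9 to 13, 10 had enough counts to test, and 6 of these fell in C with none rising, against 1.17% of all tested genes called lower: Hoxa9, Hoxa10, Hoxc9, Hoxc10, Hoxd10 and Hoxd11. The other 6, Hoxa13, Hoxb13, Hoxc12, Hoxc13, Hoxd12 and Hoxd13, were not tested. The libraries of the letters did not overlap for any of the 10, all lower in C, where 12.2% of all genes were. Summed over the list, the level was 9.04 to 15.1 CPM in C, most of it Hoxd9, and 120 to 137 CPM in L. The median log2 difference of the 10 was -6.20 with the genes at 0 set at their bound. Without ko_ML_2 none of the 10 was called, although the remaining L libraries stayed above every C library. With the first letter as a covariate 3 of the 10 were called (Hoxa9, Hoxa10 and Hoxc9), and Hoxc10 had an adjusted p of 0.112 by edgeR. DESeq2, which called 7.55% of all genes, called all 10 lower.

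Hoxa9 (chr6:52223100-52231089) and Hoxc10 (chr15:102966796-102971893) are the markers given for this contrast. Hoxa9 was at 0.930, 1.15, 0.650 and 0.481 CPM in the C libraries and at 46.1, 44.6 and 51.2 CPM in the L libraries. Every L library exceeded every C library, and the mean was 58.9-fold higher in L (47.3 ± 3.44 SD, n = 3, against 0.803 ± 0.297 SD, n = 4, CPM). The fitted log2 difference was -5.88 ± 0.29 (edgeR adjusted p = 0.00145; 0.059 without ko_ML_2). Hoxc10 had no count in any of the 4 C libraries, and 9.49, 10.1 and 10.9 CPM in the L libraries. Taking 3 counts over the C group as the floor, its level was at least 831-fold higher in L (edgeR adjusted p = 0.00582; not called without con_ML_2 or without ko_ML_2). In an exact two-sided permutation test of log2(CPM + 0.5), Hoxa9 differed by -5.22 and Hoxc10 by -4.41, each with p = 0.0571, which is the smallest p that 4 libraries against 3 can give. Every gene without overlap between the letters gets that p, and 22.4% of all tested genes had no overlap. The test left out genotype, and both genes were chosen with earlier results known, so it adds nothing to the lack of overlap.

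Hoxa10, the neighbour of Hoxa9, was at 0.173, 0, 0 and 0.109 CPM in C and at 28.2, 31.3 and 33.1 CPM in L, a 438-fold higher mean in L (edgeR adjusted p = 0.00582). Hoxc9 was at 0.173, 0.170, 0.0619 and 0.109 CPM in C and at 6.49, 6.01 and 5.32 CPM in L (log2 -5.38 ± 0.31, edgeR adjusted p = 0.00224). Neither gene showed overlap between the letters. Both lost the call when ko_ML_2 was left out (edgeR adjusted p = 0.185 for Hoxa10 and 0.0827 for Hoxc9).

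The posterior d-cluster genes were more uneven among L libraries. Hoxd10 was at 0.0630, 0, 0.0465 and 0 CPM in C, against 2.83, 9.33 and 4.79 CPM in L (edgeR adjusted p = 0.0291). Hoxd11 had no count in C and 2.16, 4.91 and 1.78 CPM in L, at least 241-fold higher (edgeR adjusted p = 0.0467). In both genes con_ML_2 was the highest L library. Hoxd9 was the exception among the 10, with levels closer together: 6.19, 9.88, 10.1 and 9.88 CPM in C and 10.8, 12 and 12.5 CPM in L, log2 -0.59 ± 0.15 (edgeR adjusted p = 0.106).

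The rest of the posterior genes were low everywhere or missed the threshold. Hoxb9 was at 1.51, 3.86, 0.588 and 0.884 CPM in C and 12.3, 9.96 and 15.9 CPM in L (log2 -3.04 ± 0.64, edgeR adjusted p = 0.0693). Hoxc11 had no count in C and 0.638, 2.01 and 0.733 CPM in L (edgeR adjusted p = 0.0629). Hoxa11 likewise had no count in C, with 0.560, 0.891 and 0.452 CPM in L (edgeR adjusted p = 0.0639). Hoxa11 overlaps its antisense transcript Hoxa11os, also without a count in C, and since no source states whether counting used strand, the reads of the pair cannot be told apart. Hotair, a noncoding RNA of the c cluster, had no count in C and 0.187, 0.664 and 0.218 CPM in L (edgeR adjusted p = 0.13). Hoxb13 had 5 counts in L and none in C, and Hoxa13, Hoxc12, Hoxc13, Hoxd12 and Hoxd13 had no count in any of the 7 libraries.

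**Figure D2:**
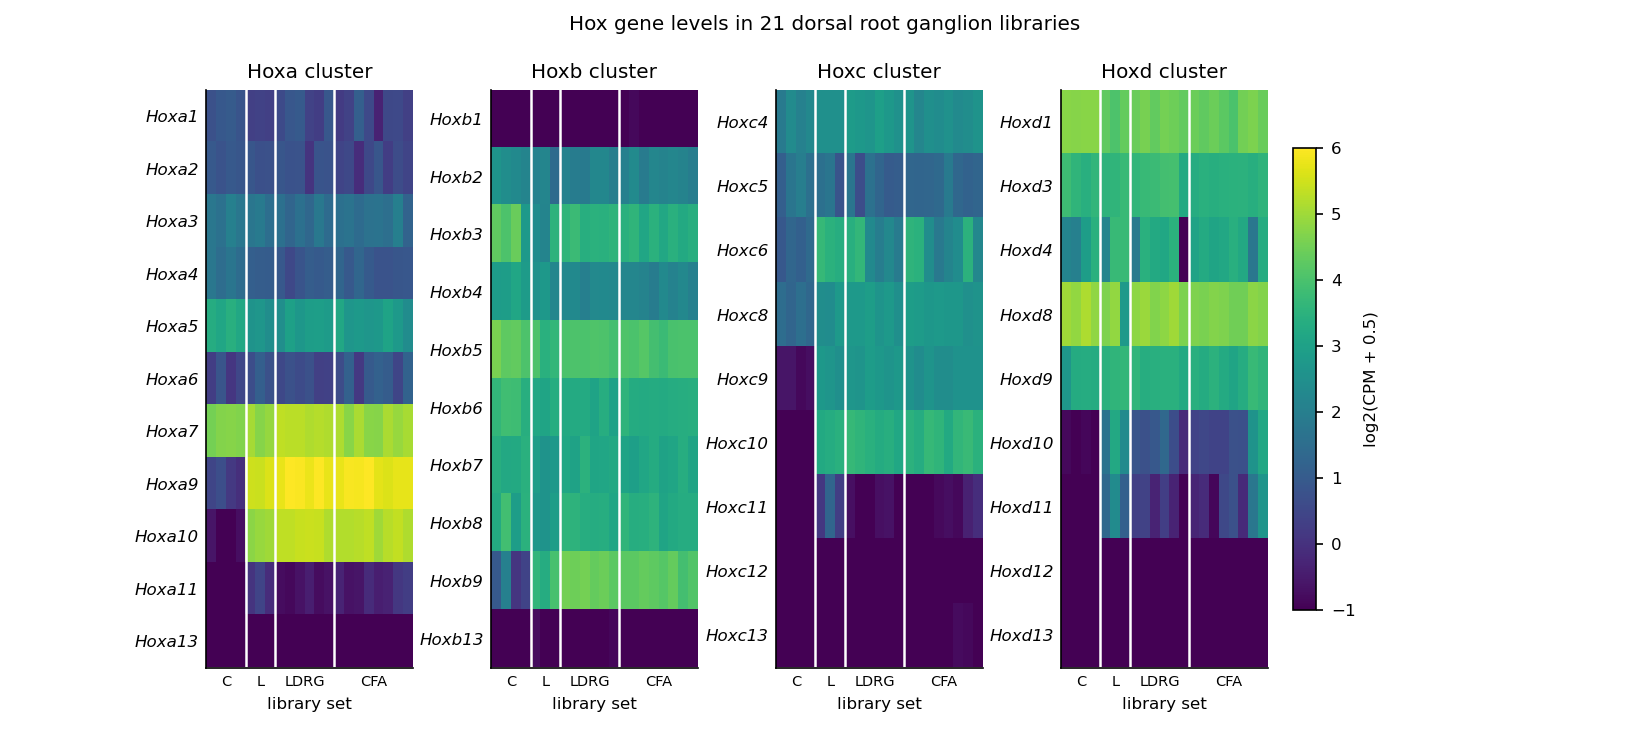
Each panel is a Hox cluster; rows are genes in paralogue order, columns the 21 libraries grouped by set (C, L, LDRG, CFA), and colour is log2(CPM + 0.5) on the scale of all 21 libraries. Dark cells for Hoxa9, Hoxa10, Hoxc9 and Hoxc10 appear in the 4 C libraries and in none of the other 17.

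In the middle groups, 5 to 8, C and L differed in both directions. Of 11 genes tested, Hoxa5 rose (0.107% of all genes were called higher) and Hoxc6 and Hoxc8 fell in C (1.17% lower), and the median of the 11 was 0.44. With the first letter as a covariate none of the 3 was called. Hoxa5 was at 10.1, 8.86, 10.7 and 9.14 CPM in C and 5.82, 6.11 and 5.16 CPM in L, without overlap (log2 0.83 ± 0.13, edgeR adjusted p = 0.0467; called in 1 of 7 fits with a library left out). Hoxc6 was at 1.47, 2.10, 1.80 and 2.31 CPM in C and 13, 11.2 and 10.2 CPM in L (log2 -2.64 ± 0.22, edgeR adjusted p = 0.00838). Of the 7 fits with a library left out, the one without ko_ML_2 lost the call (edgeR adjusted p = 0.0528), and so did the fit with the first letter as a covariate (edgeR adjusted p = 0.076). Hoxc8 was at 2.47, 2.02, 2.52 and 2.13 CPM in C and 5.16, 5.03 and 6.58 CPM in L (log2 -1.32 ± 0.18, edgeR adjusted p = 0.0399; called in 1 of 7 fits with a library left out). The c cluster thus gave all its called genes, Hoxc6, Hoxc8, Hoxc9 and Hoxc10, lower in C.

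Other members of groups 5 to 8 sat higher in C without passing the test. Hoxb7 was at 10.5, 9.43, 9.46 and 10.9 CPM in C and 7.36, 5.80 and 6.41 CPM in L (log2 0.65 ± 0.14, edgeR adjusted p = 0.0742), and Hoxb5 showed log2 0.73 ± 0.18 (edgeR adjusted p = 0.0945). Hoxa7, next to Hoxa9, overlapped between the letters at 23.8 to 27.3 CPM in C and 27.1 to 34.4 CPM in L. Hoxd8 was at 25.8 and 30.1 CPM in 2 L libraries and at 6.58 CPM in ko_ML_2, against 29.6 to 36.6 CPM in C (log2 1.29 ± 0.46, edgeR adjusted p = 0.198; called without con_FC_3).

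Groups 1 to 4, the most anterior genes, had no member called by edgeR among 11 tested, with 9 of 11 differences positive and a median of 0.51. At an unadjusted p under 0.05 there were 7 (19.2% of all genes), and DESeq2 called 2 higher. Hoxd1 was the steadiest, at 28.1, 27.7, 27.6 and 27.8 CPM in C and 20.0, 16.6 and 20.7 CPM in L, without overlap (log2 0.51 ± 0.10, edgeR adjusted p = 0.0589). Hoxa4 was at 2.39 to 3.12 CPM in C and 1.64 to 1.77 CPM in L (log2 0.75 ± 0.19, edgeR adjusted p = 0.0985). Hoxb3 varied within both letters, from 6.58 to 21.6 CPM in C and from 4.12 to 11.5 CPM in L, and its antisense partner Hoxb3os varied as well, from 3.26 to 11.2 CPM and from 4.26 to 13.3 CPM. Their reads cannot be told apart without strand. None of 9 Meis and Pbx cofactor genes was called by edgeR or DESeq2 (median 0.20; 2 at an unadjusted p under 0.05).

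In the LDRG and CFA libraries Hoxa9, Hoxc10 and the summed level of groups 9 to 13 were far above the C level, while Hoxd10, Hoxd11, Hoxc11 and Hoxa11 were lower in LDRG than in L. On the scale of all 21 libraries, Hoxa9 ran from 53.8 through a median of 58.3 to 64.4 CPM in the 6 LDRG libraries and from 48.9 through 53.3 to 67.7 CPM in the 8 CFA libraries. Hoxc10 ran from 8.49 through 10.2 to 12.5 CPM in LDRG and from 9.0 through 11.2 to 12.8 CPM in CFA. The summed level of groups 9 to 13 was 132 to 156 CPM in LDRG and 125 to 154 CPM in CFA, against 8.57 to 14.3 CPM in C and 114 to 130 CPM in L on that scale. For Hoxa9, Hoxc10 and the sum, every LDRG and CFA library was above every C library.

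Tests against LDRG used the 13 untreated libraries, where LDRG came from a different deposited table that cannot be told apart from the set. Hoxa9 differed from LDRG by -6.26 on the log2 scale in C (edgeR adjusted p = 4.87e-09) and by -0.36 in L (edgeR adjusted p = 0.108). For Hoxc10, L and LDRG differed by -0.03 (edgeR adjusted p = 0.832). Both contrasts share the LDRG libraries, and 45.3% of genes were called for C minus LDRG and 40.3% for L minus LDRG of those tested. Hoxd10 in LDRG was lower than in L, at 0.398 to 2.06 CPM with a median of 1.23 (L minus LDRG log2 2.11, edgeR adjusted p = 0.00606). Hoxd11 was at 1.70 to 4.70 CPM in L and 0 to 0.797 CPM in LDRG (log2 2.67, edgeR adjusted p = 0.0372), with CFA between 0.0434 and 5.72 CPM. Hoxc11 was at 0.608 to 1.92 CPM in L and 0 to 0.129 CPM in LDRG (log2 4.01, edgeR adjusted p = 0.0103), and at 0 to 0.440 CPM in CFA. Hoxa11 was at 0.431 to 0.852 CPM in L and 0.0569 to 0.256 CPM in LDRG (log2 2.18, edgeR adjusted p = 0.00597), with CFA between 0.134 and 0.704 CPM. LDRG libraries thus lay below every L library in these 3 genes, whereas CFA overlapped L in Hoxd11 and Hoxa11.

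**Figure D3:**
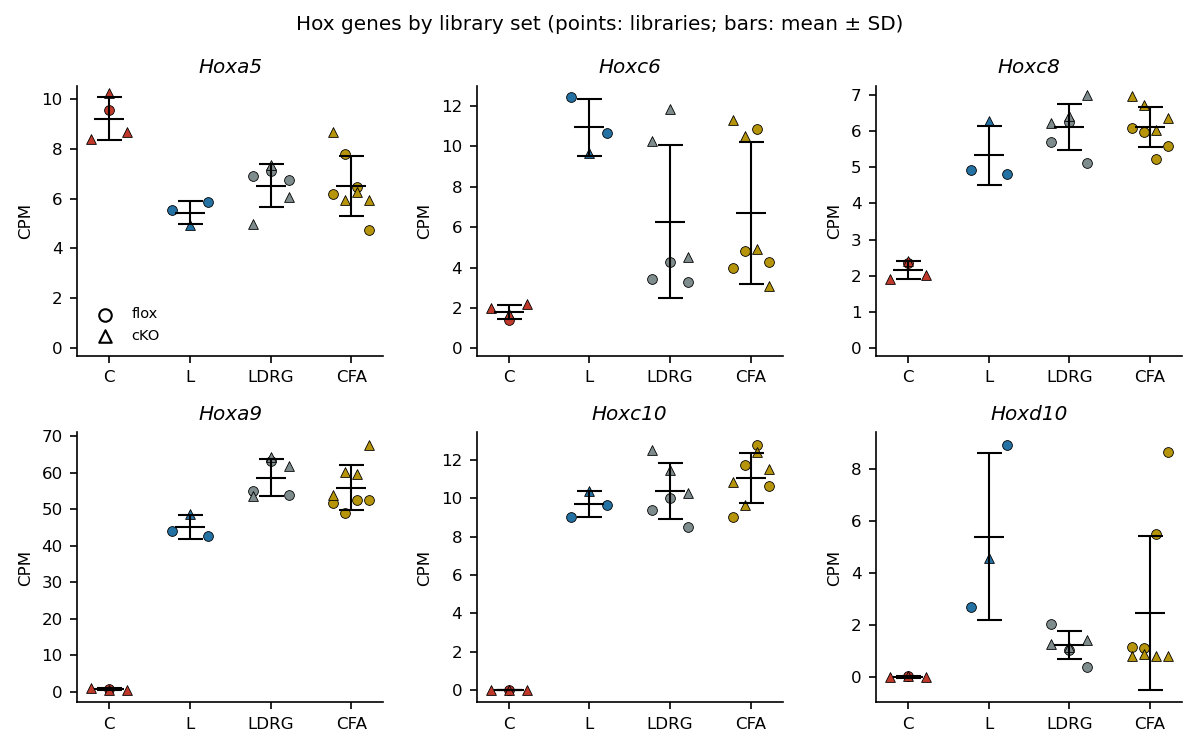
Points are libraries (circles flox, triangles Cre) of the sets C (n = 4), L (n = 3), LDRG (n = 6) and CFA (n = 8) for 6 Hox genes, in CPM on the scale of all 21 libraries; bars are mean ± SD. Hoxa9 and Hoxc10 are near 0 in C and on elsewhere, and Hoxc6 takes a low and a high level within LDRG and CFA. Hoxa5 is higher in every C library (8.40 to 10.2 CPM) than in L and LDRG, and CFA_CKO1 (8.67 CPM) lies within the C range.

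Hoxc6 did not follow the posterior pattern in the other sets. In L it was 9.68 to 12.4 CPM on the scale of 21, and in C 1.39 to 2.19 CPM, but the 6 LDRG libraries held values from 3.27 to 11.9 CPM with a median of 4.40, and the 8 CFA libraries from 3.07 to 11.3 CPM with a median of 4.87. Within LDRG 2 libraries and within CFA 3 libraries were above 10 CPM and the others at 4.90 CPM or below. The high libraries were both Cre in LDRG, and in CFA 2 were Cre and 1 was flox.

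Among genes outside the Hox clusters, the 12 largest rises in C were led by Mobp, Cbx2, Gfap and Ensa. Ensa, which encodes endosulfine alpha, an inhibitor of a PP2A phosphatase, was at 223, 237, 229 and 240 CPM in C and 50.7, 49.6 and 53.2 CPM in L. The letters were far apart and the spread within each was small (232 ± 7.98 SD, n = 4, against 51.2 ± 1.84 SD, n = 3; log2 2.15 ± 0.06, edgeR adjusted p = 3.6e-05). It was called in all 7 fits with a library left out. The LDRG libraries were at 46.7 to 52.1 CPM and the CFA libraries at 45.1 to 49.1 CPM on the scale of 21, below every C library.

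Cbx2, a subunit of Polycomb repressive complex 1, was at 10.9, 9.28, 10.2 and 9.88 CPM in C and 0.747, 0.513 and 0.796 CPM in L, a 14.7-fold higher mean in C (log2 3.85 ± 0.21, edgeR adjusted p = 0.00184). It too was called in all 7 fits with a library left out. In the other sets it took both levels: LDRG libraries lay between 0.476 and 9.02 CPM and CFA libraries between 0.462 and 8.09 CPM. C minus LDRG was 1.32 (edgeR adjusted p = 0.194). Kctd20 was at 127, 127, 124 and 126 CPM in C and 68.1, 73.3 and 69.3 CPM in L (log2 0.85 ± 0.06, edgeR adjusted p = 0.00373). Kctd20 lost the call without ko_ML_2 (edgeR adjusted p = 0.0671). The LDRG libraries were at the C level, from 118 to 124 CPM, as were the CFA libraries except 1 at 76.1 CPM.

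The other rises were smaller than those of Mobp, Cbx2, Gfap and Ensa. Sema4c, a semaphorin, was at 135, 87.0, 116 and 89.1 CPM in C and 69.8, 70.4 and 53.9 CPM in L (log2 0.90 ± 0.12, edgeR adjusted p = 0.0383). Plxnb1, a plexin receptor for semaphorins, rose by log2 0.54 ± 0.06 (edgeR adjusted p = 0.0302). Galnt16, an O-glycosylation enzyme, rose by log2 0.75 (edgeR adjusted p = 0.0495), Lzts2 by 0.69 (0.0372), the kinase gene Aatk by 0.54 (0.0378), Kazn by 0.51 (0.0403) and Enho, which encodes adropin, by 0.50 (0.0484). None of these 7 was called in more than 2 of 7 fits with a library left out.

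Central glia genes, listed as markers of oligodendrocytes and astrocytes, were higher in C. Of 9 tested, Mobp and Gfap rose, against 0.107% of all genes called higher, 7 did not overlap between the letters (10.2% of all genes, higher in C), and all 9 differences were positive. The list median was 3.78 with genes at 0 set at their bound, and the summed level was 58.2 to 141 CPM in C and 19.3 to 24.8 CPM in L. Mobp, a myelin protein of oligodendrocytes, was at 78.2, 39.9, 26.9 and 56.1 CPM in C and 1.29, 2.94 and 1.83 CPM in L (log2 4.84 ± 0.43, edgeR adjusted p = 0.0126). Gfap, the intermediate filament of astrocytes, was at 33.7, 17.7, 10.8 and 17.2 CPM in C and 1.70, 3.20 and 2.42 CPM in L (log2 3.19 ± 0.37, edgeR adjusted p = 0.0331).

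The oligodendrocyte genes Opalin and Olig2 had no count in L and were at 0.155 to 0.279 and 0.0619 to 0.372 CPM in C, and neither passed the test. On the scale of 21, Olig1 was at 0.582 to 1.47 CPM in C and 0 to 0.101 CPM in L. Mog was at 0.400 to 1.47 and 0 to 0.130 CPM, and edgeR called neither Olig1 nor Mog. Of the 9 central glia genes, 7 had an unadjusted p under 0.05 (19.2% of all genes). DESeq2 called 6 higher (7.55% of all genes in either direction). The calls for Mobp and Gfap were lost without con_FC_3, without con_ML_2 or without ko_ML_2, and that for Gfap also without ko_FC_1 or ko_MC_2. None of 6 tested spinal cord neuron genes was called by edgeR (3 had an unadjusted p under 0.05, and DESeq2 called 1 higher). In LDRG and CFA the summed central glia level was 22.4 to 34.1 and 21.2 to 31.2 CPM, so the C libraries stood above these sets too. The part of these glial markers in the Hox and other differences was not tested.

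For myelinating Schwann cell genes all 15 differences were positive and the median was 0.61, but edgeR called none and 3 did not overlap between the letters (10.2% of all genes, higher in C). At an unadjusted p under 0.05 there were 11 (19.2% of all genes), and DESeq2 called 11 higher (7.55% of all genes in either direction). Their summed level overlapped, at 7666 to 15955 CPM in C (median 9992) and 6905 to 10567 CPM in L (median 10244). Ncmap was at 155, 101, 172 and 89.6 CPM in C and 63.8, 62.7 and 46.3 CPM in L (log2 1.34 ± 0.24, edgeR adjusted p = 0.0529). Satellite glia genes gave 8 of 9 positive differences with a median of 0.29 and no edgeR call (6 at an unadjusted p under 0.05; DESeq2 called 3 higher and 1 lower). Apoe was higher in every C library (log2 0.33 ± 0.08, edgeR adjusted p = 0.0978).

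Outside the Hox clusters, the 12 largest falls in C were mostly genes of marrow and blood cells. Neutrophil and marrow granule genes formed the largest such group: all 9 tested fell, against 1.17% of all genes called lower, all 9 did not overlap between the letters (12.2% of all genes), and the median was -2.94. Their summed level was 231, 296, 151 and 244 CPM in C and 542, 1419 and 2849 CPM in L, so L libraries themselves spanned more than the gap between the letters. With any library other than con_FL_1 left out, none of the 9 was called, and with the first letter as a covariate none was either. The part of these markers in the other falls was not tested.

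Single members followed that order of libraries. Elane, neutrophil elastase, was at 0.945, 2.17, 1.13 and 0.915 CPM in C and 4.09, 10.6 and 44.5 CPM in L (log2 -4.13 ± 0.57, edgeR adjusted p = 0.0403). Mpo, myeloperoxidase, was at 2.31 to 5.65 CPM in C and 12, 39.2 and 113 CPM in L (log2 -3.84 ± 0.60, edgeR adjusted p = 0.0467). Both were highest in ko_ML_2 and lowest among L in con_FL_1. Prtn3, another granule protease, fell by log2 4.43 (edgeR adjusted p = 0.0286) and Fcnb, ficolin B, fell by 4.16 (0.0352).

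Further falls with that library order were Trem1, a myeloid receptor (log2 -3.67, edgeR adjusted p = 0.0452), the integrin gene Itgb2l (-3.60, 0.0352) and Car1, a carbonic anhydrase of red cell precursors (-3.68, 0.0286). Ccnb1-ps, also among the 12 largest falls, was at 0.104 to 0.269 CPM in C and 1.26, 2.57 and 2.91 CPM in L on the scale of 21. Immunoglobulin genes Igha (-4.14, 0.0467) and Igkv1-117 (12 counts in C, 385 in L, 0.0497) fell as well, and reads of immunoglobulin genes may be shared between copies. Lymphocyte genes gave 2 falls of 9, Jchain (log2 -2.50 ± 0.32, edgeR adjusted p = 0.0378) and Igkc (-2.26 ± 0.36, 0.0467), with all 9 negative, against 1.17% of all genes called lower. None of the 9 lymphocyte genes was called with the first letter as a covariate or in 6 of the 7 fits with a library left out, and 6 were called without con_FL_1. A set of 12 cell cycle genes gave 2 falls, Rrm2 and Mki67, with summed levels of 30.2 to 49.9 CPM in C and 80.1, 152 and 238 CPM in L. Being picked after their values were seen, these 12 are no test. None was called with the first letter as a covariate. With a library left out, 10 were called without con_FL_1, 4 without con_FC_3 and none without any other library. On the scale of 21 their sum was 25.6 to 34.2 CPM in LDRG and 31.7 to 45.6 CPM in CFA, against 28.9 to 47.3 CPM in C. EdgeR called none of 7 red cell genes (2 at an unadjusted p under 0.05, both called lower by DESeq2), with sums of 1858 to 3052 CPM in C and 1721 to 4720 CPM in L. In the LDRG libraries the neutrophil sum was 1.78 to 5.75 CPM and in the CFA libraries 41.6 to 139 CPM, below every C library on the scale of 21 (145 to 281 CPM).

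**Figure D4:**
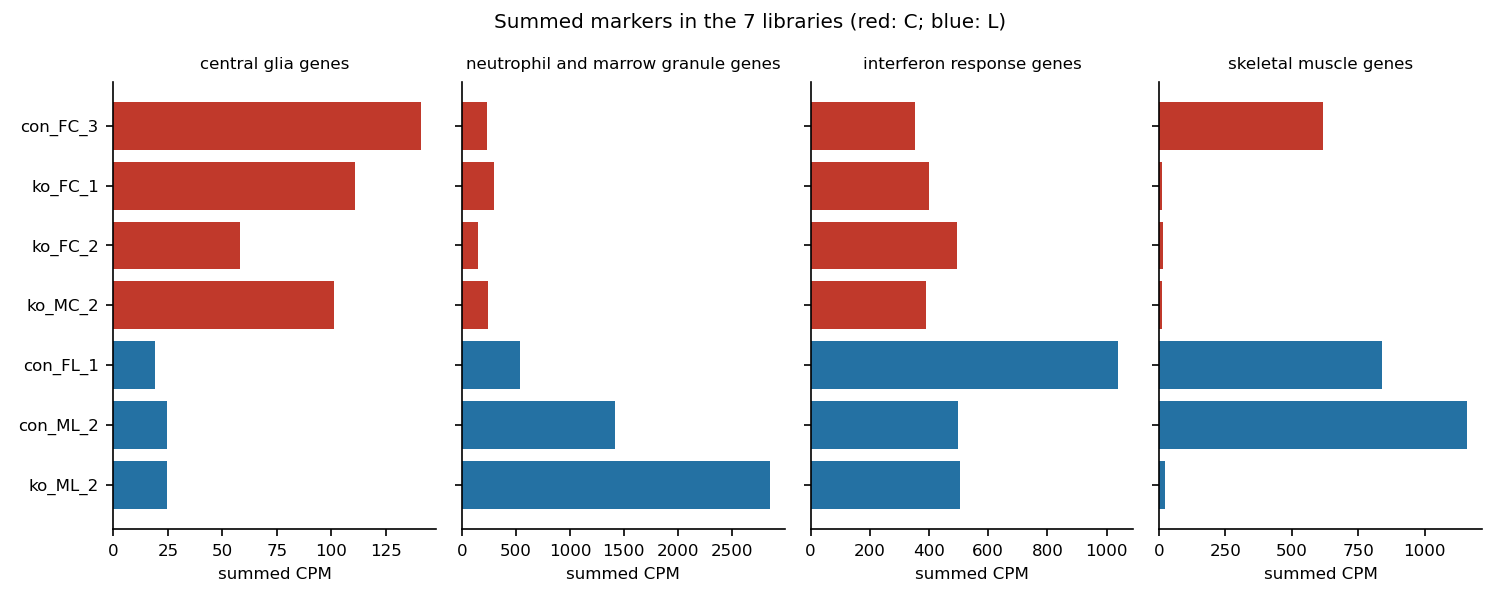
Bars are summed CPM of the listed markers in each of the 7 libraries (red C, blue L). Central glia sums are 58.2 to 141 CPM in C and at most 24.8 CPM in L; neutrophil sums are 151 to 296 CPM in C and 542 to 2849 CPM in L; interferon sums peak at 1039 CPM in con_FL_1; muscle sums are 617 to 1158 CPM in the 3 con libraries and at 21.8 CPM or below in the 4 ko libraries.

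Of the interferon response and antigen presentation genes, 1 of 28 and 1 of 10 were called lower in C, where 1.17% of all genes were, and with the first letter as a covariate none of either was called. Of 28 interferon response genes all 28 differences were negative, with a median of -0.62, and 12 did not overlap between the letters (12.2% of all genes, lower in C); Rsad2 was the gene called. Rsad2, viperin, was at 13.4, 14.1, 13.3 and 13.3 CPM in C and 38.4, 24.6 and 30.0 CPM in L (log2 -1.18 ± 0.16, edgeR adjusted p = 0.0403). The library con_FL_1 stood apart in this list: Ifit3 was at 120 CPM there and at 18.6 to 43.1 CPM in the other 6. Without con_FL_1 the list median was -0.31 with 3 genes called lower.

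Also among the 12 largest falls outside the Hox clusters, Cxcl9, a chemokine induced by interferon gamma, was at 0.205, 0.888, 0.542 and 0.372 CPM in C and 8.09, 4.14 and 8.36 CPM in L (log2 -4.24 ± 0.45, edgeR adjusted p = 0.0291). Gbp2b, an interferon-induced GTPase with close copies in the genome, had no count in C and 1.48, 0.694 and 1.79 CPM in L, at least 108-fold higher (edgeR adjusted p = 0.0478). All 10 MHC genes had negative differences (median -0.90), and H2-D1 fell by log2 0.58 (edgeR adjusted p = 0.0467).

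Genes named here after their values were seen included several that held with the first letter in the model. Thbs1, thrombospondin 1, was at 19.8, 17.9, 16.4 and 17.5 CPM in C and 41.4, 40.9 and 40.7 CPM in L (log2 -1.15 ± 0.08, edgeR adjusted p = 0.00409; with the first letter 0.0402; 0.0993 without ko_ML_2). Vcam1, an adhesion molecule, was at 8.52 to 11.6 CPM in C and 22.5 to 33.6 CPM in L (log2 -1.58 ± 0.11, edgeR adjusted p = 0.00492; 0.159 without ko_ML_2). H2-Q10, an MHC class I gene with near-identical relatives, showed log2 -2.56 ± 0.25 (edgeR adjusted p = 0.0204), and its reads may be shared with those. Thbs1 was at 3.82 to 7.11 CPM in LDRG, below both letters.

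In these 7 libraries, skeletal muscle genes followed genotype more than the letter. Their sum was 617, 839 and 1158 CPM in con_FC_3, con_FL_1 and con_ML_2 and 9.87 to 21.8 CPM in the 4 ko libraries. On the scale of 21, it was 753, 6.82 and 7.75 CPM in Cre LDRG and 75.2, 63.7 and 208 CPM in flox LDRG libraries. For CFA it was 32.0, 11.5, 7.67 and 4.39 CPM in Cre and 128, 6.92, 9.12 and 6.12 CPM in flox libraries. The genotypes thus overlapped in both other sets. Myh4, a fast myosin, was called between letters (log2 -3.30 ± 0.22, edgeR adjusted p = 0.00373) with C at 16.8, 0.643, 0.418 and 0.465 CPM and L at 227, 192 and 3.60 CPM, so the letters overlapped. The other 14 muscle genes were not called.

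Of the lists of sensory neuron types, the peptidergic one held the single edgeR call, 1 of 12, where 1.17% of all genes were called lower. In that list 5 genes did not overlap and were lower in C (12.2% of all genes) and 1 was higher (10.2%). At an unadjusted p under 0.05 there were 8 (19.2% of all genes), and DESeq2 called 5 lower (7.55% of all genes in either direction). Of 12 peptidergic nociceptor genes 11 were negative (median -0.33), and Trpv1, the capsaicin receptor, fell: 88.7, 106, 115 and 116 CPM in C and 143, 156 and 162 CPM in L (log2 -0.63 ± 0.08, edgeR adjusted p = 0.0365; called in 2 of 7 fits with a library left out). Trpa1 was at 47.8 to 65.6 CPM in C and 74.3 to 75.3 CPM in L (log2 -0.50 ± 0.10, edgeR adjusted p = 0.0663). Calca, the precursor gene of CGRP, showed log2 -0.26 ± 0.08 (edgeR adjusted p = 0.135).

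The Mrgprd-type neuron list had 11 of 13 negative differences, 6 non-overlapping and lower in C (12.2% of all genes), a median of -0.18 and no edgeR call. At an unadjusted p under 0.05 there were 6 (19.2% of all genes), and DESeq2 called 4 lower (7.55% of all genes in either direction). Plxnc1 was the nearest, at log2 -0.38 ± 0.07 (edgeR adjusted p = 0.0512). Of C-low-threshold mechanoreceptor genes, Th, tyrosine hydroxylase, was at 54.2 to 79.3 CPM in C and 92.5 to 123 CPM in L (log2 -0.59 ± 0.11, edgeR adjusted p = 0.0529). Osmr, a cytokine receptor of the somatostatin-type list, showed log2 -0.50 ± 0.09 (edgeR adjusted p = 0.0512). Proprioceptor genes leaned the other way, 9 of 11 positive: Pvalb, parvalbumin, was at 131, 126, 117 and 88.7 CPM in C and 96.4, 77.1 and 62.7 CPM in L (log2 0.71 ± 0.16, edgeR adjusted p = 0.0744). EdgeR called none of 18 neuronal endoplasmic reticulum calcium genes, where 2 had an unadjusted p under 0.05 and DESeq2 called 1 in each direction. It called none of 13 clock genes either (4 at an unadjusted p under 0.05, 0 by DESeq2).

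**Figure D5:**
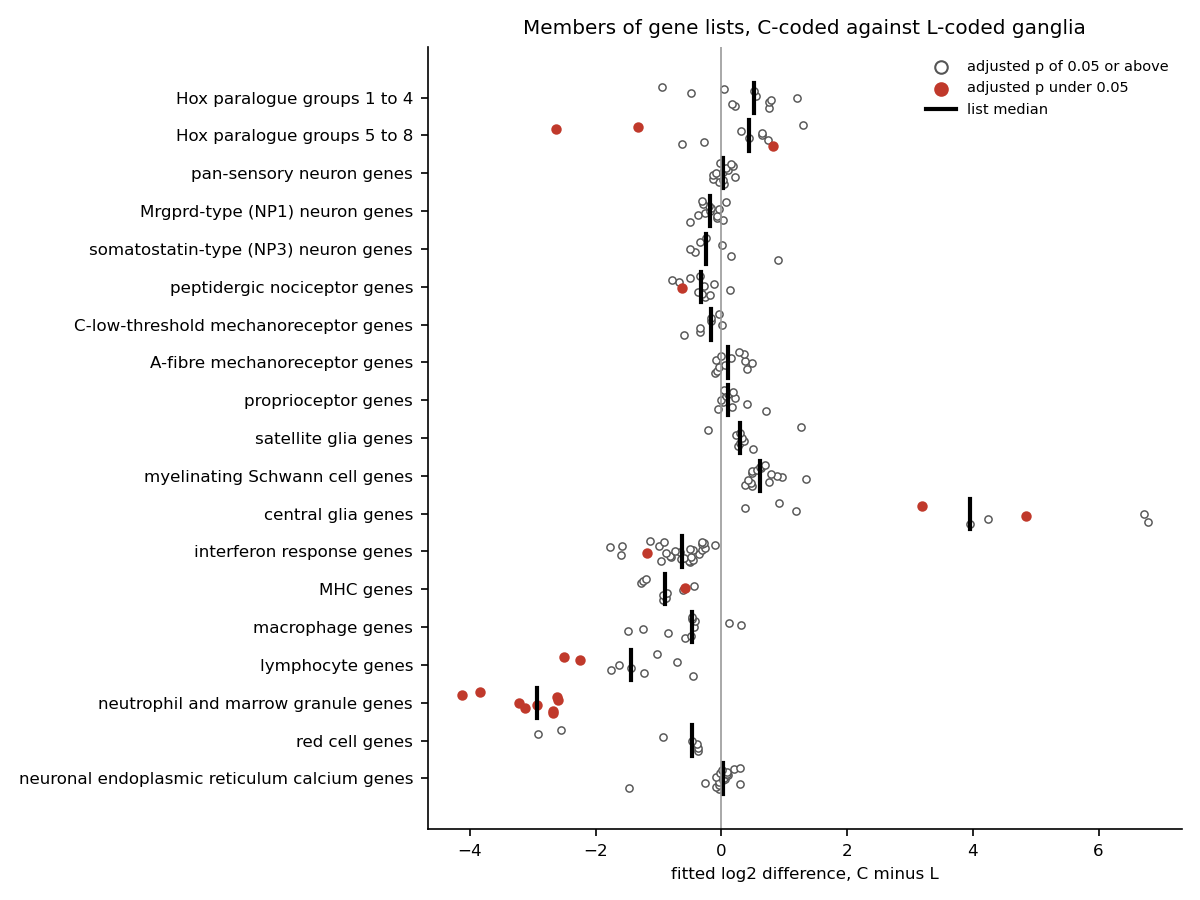
Each row is a gene list and each point a tested member at its fitted log2 difference, C minus L; filled points passed the edgeR test and black bars are list medians. Neutrophil genes lie left of 0 with all 9 filled, central glia genes right of 0 with 2 of 9 filled, and pan-sensory genes centre on 0; Hox groups 9 to 13 are left out because 4 of them had no count in C.

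Whether the C minus L difference itself depended on genotype was asked with an interaction term, fitted on 17209 genes. It called 8 genes (0.0465%), none of them a Hox gene, and 447 had an unadjusted p under 0.05. Each rested on the single flox C library and the single Cre L library, so a difference between genotypes could not be separated from those 2 samples.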

How the data were processed

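The authors deposited whole-number read counts per gene, in a table of 24512 genes for these 7 libraries and one of 24524 genes for the other 14. The submitters' processing notes list fastp 0.23.2, BWA 2.2.1, SAMtools 1.14, DESeq2 1.40.2 and mm10; the counting tool and strand setting are not given in the sources used here. Libraries were made from poly(A)-selected RNA, per the labels' protocols. Letters and genotype came from library codes and titles.

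Counts were tested with edgeR 4.0.16 (R 4.3.3) by quasi-likelihood: filterByExpr (minimum count 10, minimum total 15), TMM scaling, genotype as covariate, Benjamini-Hochberg adjustment over all 16781 genes, threshold 0.05. DESeq2 1.42.0, RLE factors, other filters and covariates, within-group fits and leaving out each library were alternatives. CPM used TMM-scaled library sizes. LDRG was compared over 24381 shared genes. On simulated data for C minus L (16544 genes), 30% of 1.5-fold, 54.2% of 2-fold and 90% of 4-fold changes were recovered, and 0.0612% of unchanged genes called.

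Named genes were all 39 Hox genes, Tmem45b, Mrgprd, the 12 largest called rises and 12 largest called falls averaging 1 CPM or more in C or in L (leaving out Hox genes, the sex-linked list and symbols that are Gm, Rik or LOC names), and up to 5 members of each list by p; exceptions are marked in the text. The comparison, its lists and the named genes were chosen with earlier results of these data known. Gene positions are from GENCODE vM21 (96.6% of symbols matched), and promoter sequences are from RefSeq.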

Additional observations from a re-analysis of the deposited data

Results flagged for a closer look

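Among the 4 C libraries, 41 named genes were screened for a sample far from the others, where chance alone would place about 1 in 20 groups. Hoxb4 stood out in ko_FC_2 at 8.75 CPM, Hoxd9 in con_FC_3 at 6.19 CPM and Plxnb1 in con_FC_3 at 70.2 CPM.

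For 8 genes the C minus L difference itself differed between genotypes by the interaction test (edgeR). The interaction on the log2 scale was 14.91 for Rps18-ps6, 13.07 for Slx1b, 10.78 for Pcp2, 4.36 for Zfp280b, 3.55 for Pnma2, 3.35 for Kcnj3, 2.93 for Edem3 and 1.89 for Cert1. For Rps18-ps6 and Slx1b, con_FC_3 had no count, and for Pcp2, ko_ML_2 had none, so those values depend on the prior count and are no bound. Edem3 was at 26.7 CPM in con_FC_3 and 26.4 CPM in ko_ML_2, and at 69.0 to 78.6 CPM in the other 5 libraries. Cert1 and Kcnj3 were likewise lowest in con_FC_3 and ko_ML_2, Zfp280b was lowest in con_FC_3 and Pnma2 in ko_ML_2. Each of the 8 calls rested on libraries that were alone in their genotype and letter. On the scale of 21, several of these genes also spread widely in other sets. Edem3 ran from 18.5 to 80.5 CPM in LDRG and 22.2 to 89.7 CPM in CFA, and Cert1 from 119 to 256 and 120 to 330 CPM. In LDRG, Kcnj3 ran from 14.1 to 44.2, Pcp2 from 0 to 3.99 and Rps18-ps6 from 0 to 21.1 CPM. Zfp280b ran from 0.383 to 28.8 CPM in CFA. Pnma2 (127 to 139 CPM) and Slx1b (14.2 to 16.3 CPM) stayed close in LDRG.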

How the results depend on the processing

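The number of genes called C minus L moved from 214 with the settings. It was 246 with RLE size factors and 273 in the Cre libraries alone. It was 1433 with DESeq2 (460 higher, 973 lower), 1442 with the spread shared with LDRG, 588 without the genotype covariate, 50 in libraries coded F, 30 in flox libraries, 16 without a filter, 14 with the first letter as covariate, 12 above 5 CPM and 1 in libraries coded M. Leaving out 1 library gave 12 (without ko_ML_2) to 536 (without con_FL_1); the others were con_ML_2 17, ko_MC_2 16, ko_FC_1 20, con_FC_3 43 and ko_FC_2 79. With the replicate block, the number in the library code, it was 6. The labels do not say that this number pairs libraries. Deviations from the fitted letter and genotype values correlated from -0.58 to 0.20 over 7 same-numbered pairs. Over the 14 pairs with different numbers they correlated from -0.77 to 1.0. Being alone in their genotype and letter, con_FC_3 and ko_ML_2 have the same deviations in that fit. It therefore cannot show whether ko_ML_2 pairs with ko_MC_2 or with any other library. The interaction calls were 58 with DESeq2 and 0 (without ko_FC_1) to 18 (without ko_FC_2) with a library left out; con_FC_3 and ko_ML_2 could not be left out, being alone in their group. Counts for C minus LDRG (7378 to 7949) and L minus LDRG (6703 to 7162) stayed close across tools, with 5982 to 7530 and 5146 to 7441 when a library was left out. Of 4704 values for 252 named genes, 545 lost a call, 207 gained one and 0 were labelled as reversed. That label did not cover every change of sign. The median of the 7 red cell genes was -0.48 in the main fit and 0.65 in libraries coded F. Groups of 4 and 3 limit the power to see small differences, and letter, first letter and genotype are unevenly crossed. At these depths, a gene without counts in C allows up to 3 counts over the 4 libraries.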
